A study of Mus musculus with 8 samples.

Results

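Aminoacyl-tRNA synthetases were examined in mouse liver, in *Rragc* S74N/+ mice and *Rragc* +/+ controls. Genes were chosen by name, as those that carry the single-letter symbol of an amino acid followed by ars, with *Eprs* added. This gave 38 of the 14506 listed genes, of which 21 encode cytosolic enzymes and 17, marked by the suffix 2, encode mitochondrial enzymes. All 21 cytosolic genes and 15 of the 17 mitochondrial genes reached a mean of 10 normalized reads per liver and were tested. *Pars2* and *Mars2* did not.

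Each synthetase joins an amino acid to the transfer RNAs that decode it, and the charged transfer RNA then delivers it to the ribosome. Cytosolic and mitochondrial ribosomes are served by separate enzymes encoded in the nucleus for most amino acids, while *Kars* and *Gars* each encode the lysine and glycine enzymes of both compartments. The enzymes fall into class I and class II by the fold of their catalytic domain. In animals several cytosolic synthetases are bound in a multisynthetase complex with scaffold proteins that have no charging activity. Many cytosolic synthetase genes are targets of Atf4, the transcription factor induced when amino acids run short, and of mTORC1 signalling through Atf4, and *Wars* is induced by interferon. *Lars*, the leucine enzyme, has also been described as a leucine sensor that acts on the Rag GTPases. RagC, the product of *Rragc*, is 1 of these GTPases and passes amino acid signals to mTORC1.

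Livers came from 4 *Rragc* +/+ mice (aged 3, 3, 3 and 2.5 months in replicates 1 to 4) and 4 *Rragc* S74N/+ mice (aged 3, 3, 2.5 and 2 months in replicates 1 to 4). The S74N allele was introduced by gene editing in the endogenous gene, is carried in every cell and is heterozygous, with a wild-type allele remaining, and the labels give no other allele or treatment. The comparison asks whether this allele changed the RNA of the synthetases. Each library was made from a piece of whole liver and a separate mouse. In such bulk tissue fewer cells of a type and less RNA per cell cannot be told apart. The library kit reads only the 3′ end of a transcript, so values follow copies rather than length, and differences in capture between genes were not tested. Between 4313076 and 6632108 reads per liver fell in listed genes. All 9 hepatocyte markers were present, with summed levels of 250290 to 345400 in *Rragc* +/+ and 271066 to 450862 in *Rragc* S74N/+ livers. The summed level of the 7 B and plasma cell markers was 85.1 to 153 in *Rragc* +/+ and 195 to 292 in *Rragc* S74N/+ livers. The summed level of the 4 listed kidney tubule markers was 212 to 350 against 56.3 to 103, and 2 of these 4 were at 0 in at least 1 liver. The summed levels of the other 7 marker lists of liver, blood and immune cells overlapped between genotypes. The part of these lists in the results below was not tested.

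Promoters are shown first for the members that hold either of 2 short motifs linked to amino acid and lysosomal signalling. RefSeq promoters (GRCm38.p6, 250 bases before to 50 after a start) were found for 29 of the 38 members. The other 9 were not searched for either motif, and included *Cars*, *Hars*, *Lars*, *Nars*, *Pars2*, *Rars*, *Vars* and *Wars*. The core of the C/EBP-ATF response element, bound by Atf4 with a C/EBP partner, was searched as TGATGNAA on both strands. It was present in 5 members and in 3.97% of all 32851 promoters in the table. The CLEAR element TCACGTGA, bound by Tfeb and Tfe3, factors held out of the nucleus by the Rag GTPases, reads the same on both strands. It was present in 2 members and in 0.974% of all promoters. The motifs did not overlap. The 6 promoters lie at chr8:111033592-111033891 on the plus strand (*Aars*), chr6:55037751-55038050 plus (*Gars*), chr13:49681880-49682179 plus (*Iars*), chr15:11399609-11399908 minus (*Tars*), chr4:129189653-129189952 plus (*Yars*) and chr1:78488848-78489147 minus (*Farsb*). They are written 5′ to 3′ in the direction of the gene, with every match in capitals.
Aars: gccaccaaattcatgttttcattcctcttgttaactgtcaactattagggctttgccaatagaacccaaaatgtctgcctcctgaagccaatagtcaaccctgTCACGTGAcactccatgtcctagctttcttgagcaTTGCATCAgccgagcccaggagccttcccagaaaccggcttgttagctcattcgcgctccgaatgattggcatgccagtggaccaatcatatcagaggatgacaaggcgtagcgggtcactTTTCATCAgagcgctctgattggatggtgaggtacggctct
Gars: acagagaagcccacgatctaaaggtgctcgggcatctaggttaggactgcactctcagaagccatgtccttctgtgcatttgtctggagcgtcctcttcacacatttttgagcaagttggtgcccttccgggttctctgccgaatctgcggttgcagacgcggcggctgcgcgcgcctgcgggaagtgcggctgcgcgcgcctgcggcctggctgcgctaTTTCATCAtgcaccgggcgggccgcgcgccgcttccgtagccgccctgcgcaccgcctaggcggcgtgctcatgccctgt
Iars: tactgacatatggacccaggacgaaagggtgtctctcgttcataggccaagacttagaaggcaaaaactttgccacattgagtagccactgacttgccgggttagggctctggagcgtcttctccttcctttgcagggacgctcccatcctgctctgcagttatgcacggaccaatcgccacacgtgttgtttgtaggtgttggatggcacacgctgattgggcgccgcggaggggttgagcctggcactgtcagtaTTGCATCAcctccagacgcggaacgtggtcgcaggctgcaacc
Tars: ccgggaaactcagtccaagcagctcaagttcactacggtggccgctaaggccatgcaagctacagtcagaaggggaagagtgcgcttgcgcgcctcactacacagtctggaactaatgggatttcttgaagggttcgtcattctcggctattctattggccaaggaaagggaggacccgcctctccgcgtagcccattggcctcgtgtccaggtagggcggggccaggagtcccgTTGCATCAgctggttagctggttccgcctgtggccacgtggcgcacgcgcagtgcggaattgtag
Yars: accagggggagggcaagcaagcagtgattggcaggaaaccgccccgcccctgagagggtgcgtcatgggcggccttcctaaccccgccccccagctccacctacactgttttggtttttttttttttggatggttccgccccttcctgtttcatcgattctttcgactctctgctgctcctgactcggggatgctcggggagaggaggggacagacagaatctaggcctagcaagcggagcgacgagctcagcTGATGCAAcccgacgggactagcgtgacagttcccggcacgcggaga
Farsb: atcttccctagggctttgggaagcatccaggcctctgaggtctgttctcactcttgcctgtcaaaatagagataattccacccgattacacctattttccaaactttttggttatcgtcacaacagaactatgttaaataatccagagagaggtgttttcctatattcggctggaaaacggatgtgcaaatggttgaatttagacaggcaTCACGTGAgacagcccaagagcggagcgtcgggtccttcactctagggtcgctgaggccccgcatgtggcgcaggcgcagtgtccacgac
Positions are counted from the RefSeq start of each window. *Aars* held both elements, with TCACGTGA at -147 from that start and matches to the response element core at -112 and at 10. The *Aars* window lies inside the gene as annotated in GENCODE M21, which begins at chr8:111033144. Its positions therefore refer to a RefSeq start downstream of that annotated start. In the other 4 genes with the core the match began at -30 (*Gars*), -15 (*Tars*), 8 (*Iars*) and 4 (*Yars*), while *Farsb* held the CLEAR element alone, at -40. A match is a run of letters and was not tested as a binding site. The log2 fold changes of these genes between genotypes are given with their groups below and ranged from -0.44 (*Farsb*) to -0.0012 (*Aars*).

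Cytosolic synthetases were the more abundant. The mean normalized read count over the 8 livers ran from 37.7 (*Tarsl2*) to 742 (*Eprs*) with a median of 155 for the 21 cytosolic genes, and from 7.46 (*Mars2*) to 237 (*Iars2*) with a median of 48.6 for the 17 mitochondrial genes. All 11174 tested genes had a median of 78.7. When each mitochondrial gene was set beside the cytosolic gene for the same amino acid, the cytosolic gene was higher in all 8 livers in 13 of 18 pairs. *Eprs*, which charges both glutamate and proline, stood in 2 of these pairs, with a ratio of means of 27.3 over *Ears2* and 78.3 over *Pars2*, the highest of the 18. The pairs for isoleucine and histidine ran the other way in every liver. *Iars* stood at 0.26 times *Iars2*, and *Hars* at 0.752 times *Hars2*. *Hars* and *Hars2* are neighbours transcribed in opposite directions with overlapping 5′ ends, and their reads were assigned by strand. The pairs for tyrosine, cysteine and valine crossed between livers, with *Yars* above *Yars2* in 1 of 8 livers, *Cars* above *Cars2* in 6 of 8 and *Vars* above *Vars2* in 6 of 8.

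**Figure D1:**
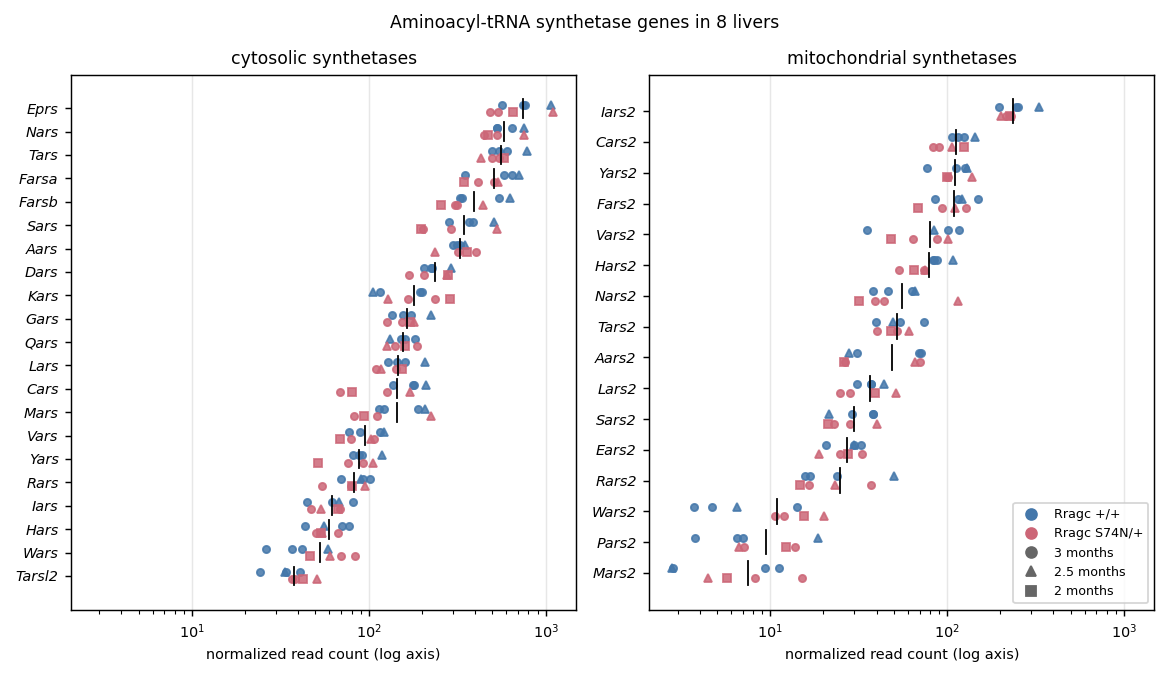
Normalized read count (log axis) of 37 of the synthetase genes in each of the 8 livers, by compartment, in order of the mean, with colours for genotype, shapes for age and a line at the mean. The cytosolic genes run from a mean of 742 (*Eprs*) to 37.7 (*Tarsl2*) and the mitochondrial genes from 237 (*Iars2*) to 7.46 (*Mars2*), and the colours overlap in every gene except *Hars2*.

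No synthetase gene passed the test between genotypes. With limma and Benjamini-Hochberg adjustment over 11174 genes, 0 of 36 tested members had an adjusted p under 0.05 (smallest 0.846), and over all tested genes this rule called 1 gene, or 0.00895%. The 1 gene called was a kidney tubule marker, lower in *Rragc* S74N/+ livers (adjusted p 0.0411 by limma). The quasi-likelihood test of edgeR on the recovered reads also called 0 members (smallest adjusted p 0.812) and 0.00895% of all genes, and DESeq2 called 0 members (smallest adjusted p 0.802) and 0.0895% of all genes. At an unadjusted p under 0.05 limma called 1 member, *Cars*, which was lower in *Rragc* S74N/+ livers, against 5.17% of all genes (2.80% lower and 2.37% higher), and edgeR and DESeq2 called 5.53% and 6.04% of all genes. In 1 member, *Hars2*, the 4 livers of one genotype did not overlap the 4 of the other, which held for 2.94% of all genes, and for 1.64% with the *Rragc* S74N/+ livers lower, as here.

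Most members nevertheless had a lower mean log2 value in *Rragc* S74N/+ livers. The log2 fold change (*Rragc* S74N/+ over *Rragc* +/+, on the log2(count + 1) scale) was below 0 in 18 of 21 cytosolic genes, with a median of -0.18, and in 12 of 15 mitochondrial genes, with a median of -0.11. Together this was 30 of 36 genes (83.3%), against 48.7% of all tested genes, whose median was 0.012. Leaving out a liver in turn gave 25 to 28 of the 35 to 37 members then tested. The genes were measured in the same 8 livers and are not independent observations. Class I genes (15 of 18 lower, median -0.16) and class II genes (15 of 18 lower, median -0.11) gave the same count. The 3 cytosolic genes with a log2 fold change above 0 were *Wars*, *Kars* and *Tarsl2*, and the mitochondrial ones included *Wars2* and *Yars2*. *Wars2* passed the filter for testing only through its level in *Rragc* S74N/+ livers.

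**Figure D2:**
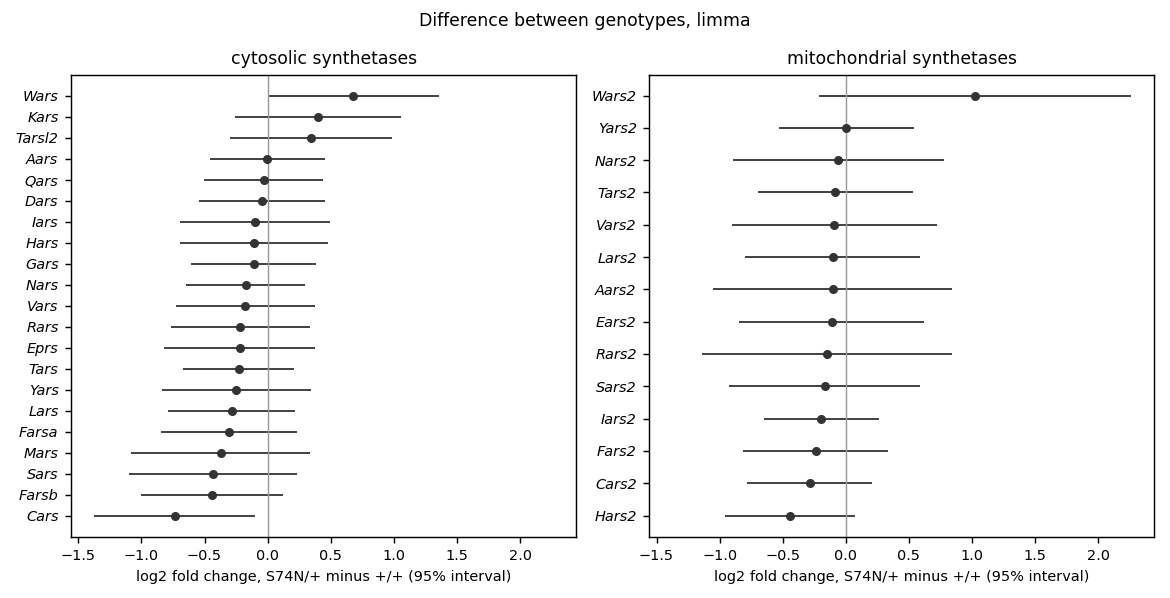
Log2 fold change of 35 of the tested synthetase genes between *Rragc* S74N/+ and *Rragc* +/+ livers, with 95% confidence intervals from limma (n = 4 per genotype). Most points lie left of 0, in 30 of the 35 genes plotted, and the interval leaves out 0 only for *Cars* (-1.37 to -0.10).

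*Cars* (chr7:143557230-143600090, minus strand, in GENCODE M21 on GRCm38) encodes the cytosolic cysteine enzyme and gave the lowest unadjusted p. Its level was 179, 137, 180 and 212 normalized reads in *Rragc* +/+ replicates 1 to 4 and at 68.9, 127, 170 and 79.9 in *Rragc* S74N/+ replicates 1 to 4. Replicates 1 and 4 of *Rragc* S74N/+ lay well below every other liver, while replicate 3 lay among the *Rragc* +/+ livers. The means were 177 ± 30.6 and 112 ± 46.7 (SD over the 4 livers of each genotype). The log2 fold change was -0.74 (SE 0.30), with an adjusted p of 0.846 by limma (unadjusted 0.0267). Leaving out 1 liver moved it between -0.97 and -0.54, and the unadjusted p stayed under 0.05 in 3 of the 8 such fits, those without *Rragc* +/+ replicate 2 or *Rragc* S74N/+ replicates 2 or 3. The mitochondrial cysteine gene *Cars2* read 116, 107, 124 and 145 in *Rragc* +/+ and 89.98, 83.5, 107 and 124 in *Rragc* S74N/+ livers, with overlapping groups and a log2 fold change of -0.29 (SE 0.23, adjusted p 0.846 by limma).

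*Wars* (chr12:108860030-108894174, minus strand), the cytosolic tryptophan enzyme, differed in the other direction. It read 41.9, 26.2, 36.8 and 58.9 in *Rragc* +/+ and 69.8, 83.5, 60.2 and 46.5 in *Rragc* S74N/+ livers. 3 of the latter exceeded every *Rragc* +/+ liver, and the 2-month-old replicate 4 did not. The means were 40.9 ± 13.6 and 65.0 ± 15.6 (SD, n = 4 each), for a log2 fold change of 0.68 (SE 0.31), with an adjusted p of 0.846 by limma and an unadjusted p of 0.0503. In the 3-month-old mice alone the log2 fold change was 1.13, with an adjusted p of 0.834. *Wars2*, its mitochondrial counterpart, was counted with 4 to 19 reads per liver. It read 3.73, 4.68, 14.1 and 6.54 in *Rragc* +/+ and 11.9, 10.7, 20.1 and 15.5 in *Rragc* S74N/+ livers. The groups overlapped through *Rragc* +/+ replicate 3, and the log2 fold change was 1.02 (SE 0.57, adjusted p 0.846 by limma). With means of 7.27 and 14.5, *Wars2* reached the mean needed for testing only through the *Rragc* S74N/+ livers. That filter favours a value above 0, so the fold change of *Wars2* is not read as a difference.

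Other genes known to respond to interferon gamma were examined beside *Wars*. Of 14 tested genes on that list 3 had a log2 fold change below 0, against 48.7% of all genes, the median was 0.39, and none passed the adjusted threshold. *Gbp4* (means 9.49 in *Rragc* +/+ and 13.2 in *Rragc* S74N/+ livers) and *Gbp5* (7.51 and 12.9) count among those above 0. Both reached the mean of 10 needed for testing only through the *Rragc* S74N/+ livers, so the count and median lean upward by that filter. An unadjusted p under 0.05 with a higher level in *Rragc* S74N/+ livers was found for 2 of the 14, against 2.37% of all genes. *Irf8*, a transcription factor of myeloid and B cells, read 69.9, 91.7, 58.0 and 52.3 against 128, 96.0, 91.4 and 153, with a log2 fold change of 0.77 (SE 0.27) and an unadjusted p of 0.0132 by limma. *Psmb9*, a subunit of the immunoproteasome, read 30.8, 31.8, 56.6 and 29.9 against 100.1, 62.2, 36.8 and 109, with a log2 fold change of 0.96 (SE 0.37) and an unadjusted p of 0.0229 by limma. The genotypes overlapped in each. In both genes *Rragc* S74N/+ replicates 1 and 4 were the highest livers, whereas *Wars* was highest in replicates 2 and 1.

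The multisynthetase complex holds 8 of the cytosolic enzymes, and 7 of them had a log2 fold change below 0, with a median of -0.16. A value below 0 was found in 18 of all 21 cytosolic genes, 83.3% of all tested synthetases and 48.7% of all tested genes. *Eprs* (chr1:185363044-185428360, plus strand), the most abundant synthetase, charges both glutamate and proline. It read 769, 565, 744 and 1077 in *Rragc* +/+ and 484, 539, 1103 and 654 in *Rragc* S74N/+ livers. Its highest livers were the 2.5-month-old mouse of each genotype. The means of 789 ± 213 and 695 ± 281 (SD, n = 4 each) gave a log2 fold change of -0.22 (95% interval -0.82 to 0.38, adjusted p 0.874 by limma).

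*Lars*, the leucine enzyme of the same complex, read 159, 145, 129 and 209 in *Rragc* +/+ and 109, 143, 117 and 154 in *Rragc* S74N/+ livers. Genotypes overlapped, with the lowest 2 livers among *Rragc* S74N/+ and the highest in *Rragc* +/+. The log2 fold change was -0.28 (95% interval -0.79 to 0.22, adjusted p 0.846 by limma), so that neither an unchanged level nor a fall by 0.79 on the log2 scale was outside the interval. *Kars*, which serves both compartments, was the member of the complex with a log2 fold change above 0. It read 117, 195, 199 and 106 in *Rragc* +/+ and 237, 166, 128 and 287 in *Rragc* S74N/+ livers. The highest values came from *Rragc* S74N/+ replicates 4 and 1 and the lowest from *Rragc* +/+ replicates 4 and 1, and the log2 fold change was 0.40 (95% interval -0.26 to 1.06, adjusted p 0.846 by limma).

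The other enzymes of the complex had log2 fold changes of -0.37 (*Mars*, methionine), -0.22 (*Rars*, arginine), -0.10 (*Iars*, isoleucine), -0.05 (*Dars*, aspartate) and -0.03 (*Qars*, glutamine). *Qars* was the steadiest member, with a highest liver 1.47 times the lowest. The scaffold genes of the complex were measured too. *Aimp1* averaged 202 ± 18.9 in *Rragc* +/+ and 196 ± 22.1 in *Rragc* S74N/+ livers, *Aimp2* 95.2 ± 25.1 and 77.1 ± 23.1, and *Eef1e1* 11.6 ± 8.31 and 12.5 ± 6.74 (SD, n = 4 each). Log2 fold changes of the scaffolds were -0.04, -0.31 and 0.24, and none had an unadjusted p under 0.05.

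Among cytosolic enzymes outside the complex, *Nars*, *Tars*, *Farsa* and *Farsb* were the most abundant. *Nars*, for asparagine, read 649, 531, 533 and 756 in *Rragc* +/+ and 451, 534, 753 and 475 in *Rragc* S74N/+ livers, again with both 2.5-month-old mice at the top. The log2 fold change was -0.17 (SE 0.22, adjusted p 0.874 by limma). *Tars*, for threonine, read 545, 498, 603 and 789 against 543, 498, 433 and 584, and here the 2.5-month-old livers were the highest of *Rragc* +/+ and the lowest of *Rragc* S74N/+. Its log2 fold change was -0.23 (SE 0.20, adjusted p 0.851 by limma).

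*Farsa* and *Farsb* encode the alpha and beta subunits of the cytosolic phenylalanine enzyme. *Farsa* read 645, 584, 349 and 708 in *Rragc* +/+ and 417, 510, 539 and 346 in *Rragc* S74N/+ livers. *Farsb* read 543, 328, 337 and 625 against 306, 314, 444 and 258. *Rragc* +/+ replicates 1 and 4 were the highest 2 livers for both subunits, and *Rragc* S74N/+ replicate 4 the lowest. The log2 fold changes were -0.31 (SE 0.25) for *Farsa* and -0.44 (SE 0.26) for *Farsb*, each with an adjusted p of 0.846 by limma. *Sars*, for serine, had a change of the same size, -0.43 (SE 0.31), with *Rragc* S74N/+ livers at 203, 293, 529 and 197 and *Rragc* +/+ livers at 390, 368, 284 and 508. Without *Rragc* S74N/+ replicate 3, *Cars*, *Farsb*, *Mars* and *Sars* had an unadjusted p under 0.05 by limma, while the smallest adjusted p among them was 0.253. The share of all genes under 0.05 in that fit is not given here, so these genes are not read as standing out from it.

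*Aars*, for alanine, read 298, 327, 317 and 351 in *Rragc* +/+ and 402, 319, 236 and 357 in *Rragc* S74N/+ livers, so that the *Rragc* S74N/+ livers held both the highest and the lowest value. The means were 323 ± 22.1 and 329 ± 70.4 (SD, n = 4 each), with a log2 fold change of -0.0012 by limma (95% interval -0.45 to 0.45) and 0.031 by edgeR. *Gars*, for glycine in both compartments, read 173, 156, 136 and 224 against 128, 155, 179 and 170, with a log2 fold change of -0.11 (SE 0.23, adjusted p 0.918 by limma) that turned to 0.022 without *Rragc* +/+ replicate 4. *Tarsl2*, a second threonine enzyme, was the least abundant cytosolic gene at 41.0, 24.3, 34.0 and 33.6 against 36.7, 38.2, 51.3 and 42.4, with a log2 fold change of 0.35 (SE 0.30, adjusted p 0.847 by limma). The remaining cytosolic genes had log2 fold changes of -0.25 (*Yars*), -0.18 (*Vars*) and -0.11 (*Hars*).

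*Hars2*, the mitochondrial histidine enzyme, was the member whose genotypes did not overlap. It read 84.8, 87.9, 83.5 and 107 in *Rragc* +/+ and 74.4, 53.3, 74.7 and 65.3 in *Rragc* S74N/+ livers. The gap lay between 74.7 and 83.5 normalized reads, and each liver held 59 to 115 recovered reads of the gene. The means were 90.9 ± 11.2 and 66.9 ± 10.05 (SD, n = 4 each), with a log2 fold change of -0.44 (SE 0.24, adjusted p 0.846 by limma, unadjusted 0.0852), and leaving out each liver in turn moved the change between -0.50 and -0.34. Its neighbour *Hars* averaged 62.2 ± 15.3 and 56.5 ± 7.20 (SD, n = 4 each), and there the genotypes overlapped.

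**Figure D3:**
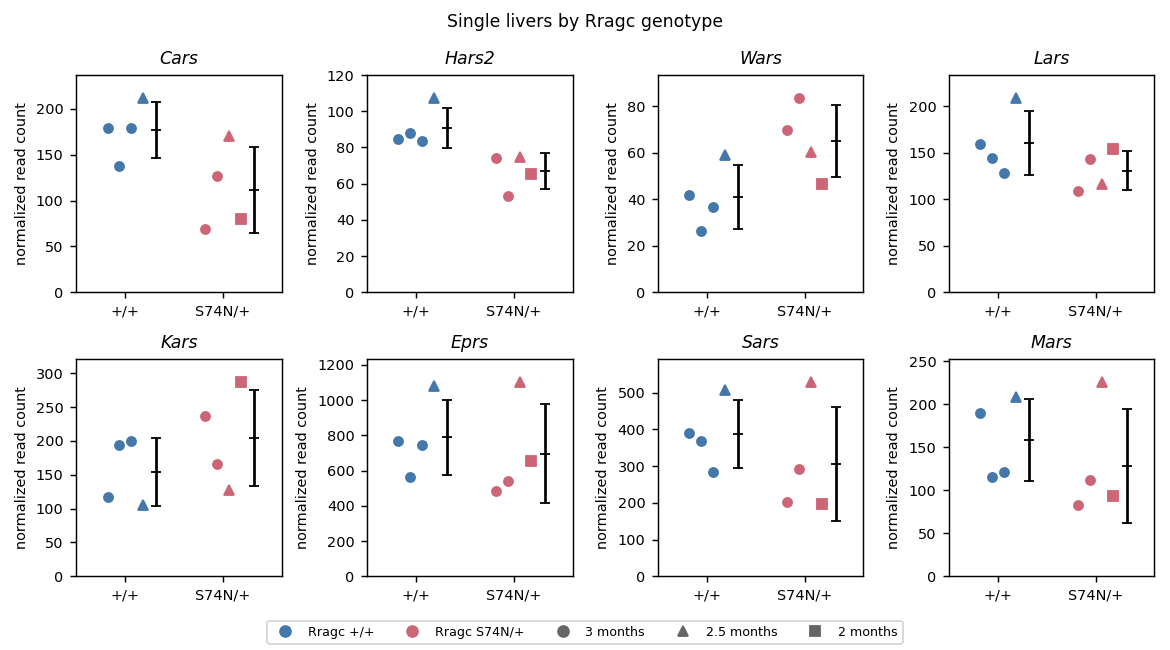
Normalized read counts of named synthetase genes in each liver by genotype, each point a liver, with its shape giving the age and bars giving the mean and 1 SD to either side (n = 4). *Cars* and *Hars2* have lower means in *Rragc* S74N/+ livers (112 against 177 and 66.9 against 90.9) and *Wars* a higher one (65.0 against 40.9), and only *Hars2* has no overlap.

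Of the mitochondrial enzymes *Iars2*, for isoleucine, was the most abundant, at 196, 251, 245 and 330 in *Rragc* +/+ and 216, 231, 203 and 228 in *Rragc* S74N/+ livers. The *Rragc* S74N/+ values lay inside the *Rragc* +/+ range, and the log2 fold change was -0.19 (SE 0.21, adjusted p 0.859 by limma). *Fars2*, for phenylalanine, read 149, 86.0, 116 and 121 against 93.6, 129, 111 and 68.5, with overlapping groups and a log2 fold change of -0.24 (SE 0.27, adjusted p 0.862 by limma). *Yars2*, for tyrosine, read 126, 76.7, 112 and 129 against 101, 100.4, 138 and 100.3, with a log2 fold change of 0.0039 (SE 0.25, adjusted p 0.998 by limma) whose sign turned with the scaling and the tool. *Mars2*, for methionine, was the lowest member and had only 2 to 17 reads per liver. It read 9.32, 11.2, 2.83 and 2.80 against 8.26, 15.1, 4.46 and 5.71, with no separation of the genotypes.

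*Aars2*, the mitochondrial alanine enzyme, stood at 2 separate levels that did not follow genotype. In 4 livers it read 65.7 to 71.1 and in the other 4 26.1 to 31.1, with 2 livers of each genotype at each level. The higher level was held by *Rragc* +/+ replicates 1 and 2 and *Rragc* S74N/+ replicates 2 and 3. The remaining mitochondrial genes that were tested and are described here (*Ears2*, *Lars2*, *Nars2*, *Rars2*, *Sars2*, *Tars2* and *Vars2*) had log2 fold changes from -0.17 to -0.06 by limma, and *Nars2*, at -0.06, turned to 0.10 by edgeR and DESeq2. Some varied widely within a genotype, such as *Vars2*, for valine, from 35.4 to 117 in *Rragc* +/+ livers, and *Rars2*, for arginine, from 15.8 to 50.5. *Pars2*, for proline, averaged 9.48 normalized reads and was not tested. Mitochondria lack a glutamine enzyme of their own and form its charged transfer RNA from the product of *Ears2* with an amidotransferase. The genes of that enzyme averaged 17.0 ± 4.24 and 20.6 ± 10.3 (*Qrsl1*), 61.2 ± 13.5 and 54.4 ± 19.99 (*Gatb*) and 81.5 ± 31.3 and 78.2 ± 27.0 (*Gatc*) in *Rragc* +/+ and *Rragc* S74N/+ livers (SD, n = 4 each), and *Ears2* averaged 28.2 ± 5.24 and 26.2 ± 5.88.

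Among 12 synthetase genes known as Atf4 targets 11 had a log2 fold change below 0, with a median of -0.23, beside 83.3% of all tested synthetases and 48.7% of all genes. Of 16 other tested genes of the Atf4 amino acid response 6 had one below 0, with a median of 0.15. The difference between the lists was not tested. *Atf4* itself read 2974, 1645, 1129 and 2145 in *Rragc* +/+ and 1341, 1412, 1403 and 886 in *Rragc* S74N/+ livers, with a log2 fold change of -0.58 (SE 0.28, adjusted p 0.846 by limma). Of these 16 genes 1 had an unadjusted p under 0.05 by limma, *Slc38a2*, a transporter of neutral amino acids. Over all tested genes 2.37% had such a p with a higher level in *Rragc* S74N/+ livers. *Slc38a2* read 378, 395, 252 and 411 against 582, 462, 468 and 719. Every *Rragc* S74N/+ liver lay above every *Rragc* +/+ liver. The genotypes did not overlap in 1 of the 16, this gene, against 2.94% of all tested genes. Its log2 fold change was 0.64 (SE 0.23, adjusted p 0.846 by limma, unadjusted 0.0151). Among 3 editing and deacylation factors and 7 other genes of transfer RNA charging and delivery none had an unadjusted p under 0.05.

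Livers differed in their synthetase level as a whole. The cytosolic genes summed to 5493, 4805, 4793 and 6744 normalized reads in *Rragc* +/+ and 4233, 4558, 5789 and 4509 in *Rragc* S74N/+ livers, or 5459 ± 917 and 4772 ± 693 (SD, n = 4 each). The mitochondrial genes summed to 1129, 1027, 1020 and 1257 against 917, 996, 1165 and 928. In both compartments the 2.5-month-old mouse had the highest sum of its genotype, and *Rragc* S74N/+ replicate 3 exceeded 3 of the 4 *Rragc* +/+ livers. *Rragc* +/+ replicate 4 held the highest value of 10 of the 21 cytosolic genes, against 16.5% of all tested genes that were highest there. *Rragc* S74N/+ replicate 1 held the lowest value of 7 of the 21, against 13.6%. Within single genes the highest liver was a median 1.92 times the lowest for cytosolic and 2.07 times for the tested mitochondrial genes, and 2.59 times over all tested genes.

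**Figure D4:**
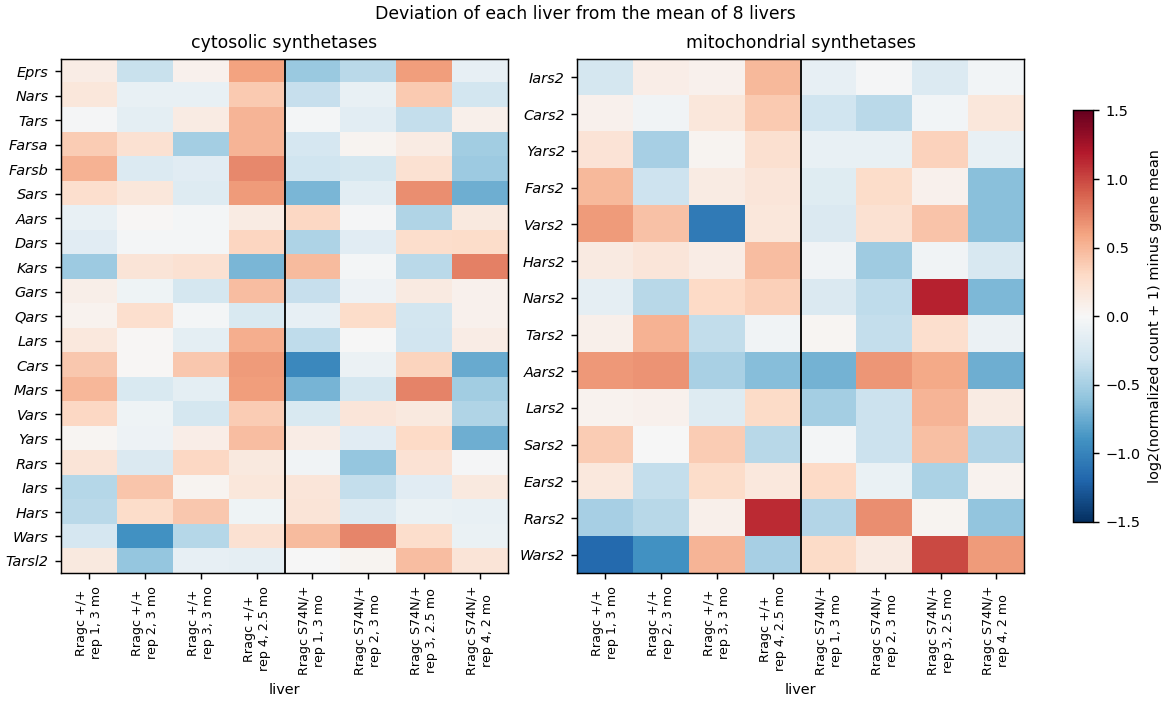
The synthetase genes of the plot of fold changes in each liver as the difference of log2(count + 1) from the gene's mean over the 8 livers, on a colour scale from blue (lower) to red (higher), with livers in columns by genotype and replicate and genes in rows by compartment. By count, *Rragc* +/+ replicate 4 has 18 of 21 cytosolic genes above their median over livers and *Rragc* S74N/+ replicate 2 has 5 of 21.

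The 2.5-month-old livers were compared with the 5 livers of 3 months in a fit with a genotype term and without the 2-month-old liver, a comparison added after the values were seen that rests on 2 mice, 1 of each genotype. *Eprs* was the synthetase gene that passed the threshold. It averaged 1090 normalized reads at 2.5 months and 620 at 3 months, a log2 fold change of 0.87 (SE 0.22, adjusted p 0.0336 by limma). Over all 11104 genes tested, 3.70% passed, and 0.387% passed with a higher level at 2.5 months. The call for *Eprs* held in 2 of 7 fits that left out a liver, those without *Rragc* +/+ replicate 1 or 3, and in the other 5 its adjusted p lay between 0.0561 and 0.461. In the fits without *Rragc* +/+ replicate 4 (0.140) or *Rragc* S74N/+ replicate 3 (0.461) a single 2.5-month-old liver remained, which was assumed to vary like the other group. An unadjusted p under 0.05 by limma was found in 19.7% of all genes. It came with a higher level at 2.5 months in 7.86% and with a lower level in 11.8%. At this threshold 5 cytosolic genes (*Eprs*, *Sars*, *Mars*, *Farsb* and *Nars*) and 1 mitochondrial gene (*Nars2*) were higher and *Kars* was lower. Both 2.5-month-old livers lay above all 5 livers of 3 months in 7 of 21 cytosolic genes (*Eprs*, *Sars*, *Mars*, *Nars*, *Dars*, *Gars* and *Yars*) and 3 of 15 mitochondrial genes (*Nars2*, *Lars2* and *Yars2*), against 11.3% of all genes. *Qars* was the 1 member of 36 in which both lay below all 5, against 12.9% of all genes. The median log2 fold change between these ages was 0.28 for cytosolic and 0.29 for mitochondrial genes, and 0.021 over all genes.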

How the data were processed

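Liver RNA was sequenced with a 3′ mRNA kit (QuantSeq FWD). Per the study's methods and the submitters' processing notes, the authors checked reads with FastQC 0.11.7, aligned them to GRCm38 with TopHat2 2.0.10, Bowtie 1.0.0 and SAMtools 0.1.19, assigned them to genes in a strand-aware way with HTSeq 0.6.1 against a GENCODE annotation, and normalized with DESeq. The deposited signal is a read count scaled by the authors' size factors. Its values were whole multiples of 1 step per liver in 100% of cases (tolerance 0.001), so the whole reads were recovered. Listed genes held at least 6 reads in sum. Reads are not independent molecules, and similar transcripts may share reads.

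Groups came from the labels. Replicate numbers only name a liver. Genes with a mean of at least 10 were tested with limma 3.58.1 in R 4.3.3 (mean-variance trend, genotype as the only term) on log2(value + 1), with Benjamini-Hochberg adjustment at 0.05 over 11174 genes. Differences of low genes are understated on this scale. edgeR 4.0.16 and DESeq2 1.42.0 on the recovered reads, other pseudocounts (0.1, 5), filters (none, 50), scalings, weights and age terms, and leaving out each liver were alternatives. The scripts were tested on simulated counts. Members and lists were chosen with earlier results of these data known. Named were members with an unadjusted p under 0.05 or no overlap, the 4 most abundant of each compartment, the lowest, *Lars*, *Wars*, *Eprs*, *Kars*, *Gars* and *Tarsl2*, the scaffold and amidotransferase genes, and called genes of the other lists. *Aars2*, *Aars*, *Farsb*, *Sars*, *Wars2* and *Atf4* were added after their values were seen. Of the members, 1 counts in the totals and is not reported here. Gene coordinates are those of GENCODE M21. Promoter motifs were counted on RefSeq promoters of GRCm38.p6.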

Additional observations from a re-analysis of the deposited data

Results flagged for a closer look

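In 2 synthetase genes 1 *Rragc* S74N/+ liver stood apart from the other 3 of its group by Dixon's criterion. Over the 74 groups examined (37 genes in 2 genotypes) chance gives about 1 in 20, or 3.7, more than the 2 found. *Nars2*, for mitochondrial asparagine, read 116 in the 2.5-month-old replicate 3 and 31.8 to 44.1 in the others. *Yars2* read 138 in replicate 3 and 100.3 to 101 in the others.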

How the results depend on the processing

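No paired analysis was possible because numbers of replicates here only name a liver and mark no shared litter, day or animal. The count of synthetase genes past the adjusted threshold was 0 in all 14 other settings and in all 8 fits without a liver. The count at an unadjusted p under 0.05 was 1 in the main setting. It was 2 with a pseudocount of 0.1, with TMM scaling, in 3-month-old mice alone and with age as a factor (added after seeing the data). It was 3 without the mean-variance trend and 4 with array quality weights. When a liver was left out it was 0 to 4, 4 being without *Rragc* S74N/+ replicate 3 and 0 without replicate 1 of either genotype. The share of all genes under 0.05 is given above for the main, edgeR and DESeq2 fits only. In the other settings a larger count is therefore not read as a result about the synthetases. The count of all genes past the threshold was 1, against 0 without the trend, with age as a numeric covariate and in 3-month-old mice alone, 3 with age as a factor, 10 with DESeq2 and 0 to 2 without a liver. The cause was not tested. The median log2 fold change stayed below 0 in every fit, from -0.23 to -0.13 for cytosolic genes (-0.24 to -0.097 without a liver) and from -0.19 to -0.075 for mitochondrial genes (-0.27 to -0.035 without a liver, the first without *Rragc* S74N/+ replicate 3). The log2 fold change of *Cars* ran from -0.97 to -0.54, of *Wars* from 0.49 to 0.87 and of *Hars2* from -0.50 to -0.34 without a liver. Near 0, *Yars2* turned to -0.0028 with upper-quartile scaling, -0.075 with array weights, -0.046 with numeric age, -0.026 in 3-month-old mice, -0.0067 with edgeR, -0.0083 with DESeq2 and -0.0053 with edgeR without a filter, and ran from -0.16 to 0.086 without a liver, including -0.11 without *Rragc* S74N/+ replicate 3. *Gars* ran from -0.22 to 0.022, the last without *Rragc* +/+ replicate 4. With edgeR and DESeq2 *Aars* and *Nars2* also turned from below to above 0. Other scalings moved the median of all genes by less than 0.1 on the log2 scale. With 4 livers a genotype the precision was limited: the 95% interval was -0.45 to 0.45 for *Aars* and -0.21 to 2.26 for *Wars2*, a gene with 4 to 19 reads per liver.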
